A study of Mus musculus with 6 samples.

Results

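The Notch receptors, their ligands and their direct target genes were followed in hematopoietic stem cells (HSCs) sorted from mouse bone marrow, which renew all blood lineages. The set was fixed by gene symbol and held 10 genes: the ligands Dll1, Dll4, Jag1 and Jag2, the receptors Notch1, Notch2, Notch3 and Notch4, and the targets Hes1 and Hey1. All 10 were found among the 24091 genes of the deposited count table. Of the 10, 9 had enough counts to be tested and Hey1 did not.

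HSCs with the surface phenotype lineage-negative, Sca-1+, c-Kit+, CD150+ and CD48- came from aged mice of 20 months (3 libraries, aged 1 to aged 3) and young mice of 2 months (3 libraries, young 4 to young 6). The labels mark all samples as wt and name no treatment, and neither strain nor sex is given in the sources used. Samples were pools, of 4 mice for the aged and 30 mice for the young group, and the labels do not say whether these numbers are per sample. The p-values therefore rest on how far pools of one age differ, and a share of that may be technical. As the mouse numbers differ with age throughout, age and pool size cannot be told apart. The series title names miR-126 and the vessels of the ageing marrow.

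Notch signalling passes between touching cells. A Delta-like or Jagged ligand on one cell pulls on a Notch receptor of its neighbour, the receptor is cut first by an ADAM protease and then by gamma-secretase, and the freed intracellular part enters the nucleus. There it joins the DNA-binding protein RBPJ and a Mastermind coactivator and switches on repressor genes of the Hes and Hey families. In marrow, vessel and stromal cells are known to present Notch ligands to blood progenitors, and Notch1 is best known for directing progenitors to the T cell fate.

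The libraries held between 16452829 (young 4) and 21918658 (young 6) counts. Young 4 stood apart from the other young libraries: across genes, log2 values correlated at 0.951 and 0.948 with young 5 and young 6, against 0.989 between those 2. It also had 4.06% of its counts in Actb, against 0.555% to 1.36% elsewhere. Members' results that rest on young 4 are therefore given with and without it. Aged 2 was unusual in another respect: counts fell on 20918 genes there. For aged 1 and aged 3 that number was 16782 and 17057, and no young library passed 16435. By correlation aged 2 did not stand apart within its group (0.966 with aged 1, 0.983 with aged 3, 0.968 between those 2). The cause of the wider spread of counts was not tested. Of 13413 genes tested with edgeR's quasi-likelihood test, 772 (5.76%) were called at a Benjamini-Hochberg adjusted p under 0.05, with 571 higher in aged cells (4.26%) and 201 lower (1.50%). Stem cell markers were present in all libraries. The 8 listed (Kit, Ly6a, Slamf1, Procr, Fgd5, Hoxb5, Mecom and Hlf) summed to 1750 to 2100 CPM (counts scaled to library size) in aged and 868 to 1410 CPM in young libraries, and 5 of them were called higher in aged cells. In bulk RNA, fewer cells of a type and less RNA per cell cannot be told apart.

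Dll4, the ligand best known from sprouting vessels and the thymus, was higher in aged HSCs and was the only one of the 9 tested genes that passed the test. Its level was 5.90, 2.22 and 4.27 CPM in aged 1, 2 and 3, and 0.318, 0.897 and 0.877 CPM in young 4, 5 and 6. All aged libraries lay above all young ones, and the lowest values came from the library that stood apart. Dll4 rose 5.68-fold (2.51 ± 0.51 SE on the log2 scale, n = 3 each, edgeR adjusted p = 0.0398). Without young 4 the log2 fold change was 2.19 and the edgeR adjusted p was 0.0464, with 4.93% of genes called higher in that fit.

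The call of Dll4 was close to the threshold. Scaling by library totals gave an adjusted p of 0.0520 and limma-voom one of 0.0518. The call was also lost when aged 1, aged 2, aged 3, young 5 or young 6 was left out, with adjusted p-values of 0.0633 to 0.131 by edgeR, while the log2 fold change stayed between 2.16 and 2.78. In an alternative added after seeing the data, a trend of GC content and gene length was taken out. There the log2 fold change was 2.09 (adjusted p = 0.0186 by edgeR), in a fit that called 720 of 13413 genes higher. Dll4 lies on mm10 chromosome 2, 119325784 to 119335666, on the plus strand. In GENCODE M21 the antisense gene Gm14207 shares exon bases with it, 214 in all. The library kit does not mark strand, so reads from these bases cannot be assigned to either gene. Gm14207 itself was at 3.02, 4.18 and 5.99 CPM in aged and 1.27, 1.30 and 0.964 CPM in young libraries, and it was also called higher (3.74-fold, adjusted p = 0.0336 by edgeR). Across libraries the order differed: Dll4 was highest in aged 1, Gm14207 in aged 3. The part of Gm14207 reads in the Dll4 values was not tested.

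The stretches before the transcript start of Dll4 and Notch3, the members with the smallest p, are shown because HES proteins, which repress the genes they bind, recognise the N box CACNAG. They come from RefSeq (GRCm38.p6), run 5′ to 3′ on the gene's strand and end at the base before the start, with N boxes on either strand in capitals.
Dll4, chr2:119325534-119325783, plus strand: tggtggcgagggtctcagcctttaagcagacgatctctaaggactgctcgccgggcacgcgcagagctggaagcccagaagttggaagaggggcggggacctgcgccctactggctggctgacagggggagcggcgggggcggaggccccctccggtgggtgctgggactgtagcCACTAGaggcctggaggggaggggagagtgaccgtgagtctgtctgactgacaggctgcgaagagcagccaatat
Notch3, chr17:32166891-32167140, minus strand: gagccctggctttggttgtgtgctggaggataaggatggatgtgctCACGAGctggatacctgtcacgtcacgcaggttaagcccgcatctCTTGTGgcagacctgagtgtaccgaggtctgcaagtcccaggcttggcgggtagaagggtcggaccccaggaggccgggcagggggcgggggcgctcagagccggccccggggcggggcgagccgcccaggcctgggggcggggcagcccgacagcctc
Counting the first transcribed base as 0, the N box of Dll4 begins at position -75, and those of Notch3 begin at -204 and -159. Over 32544 distinct RefSeq promoter windows, each from 250 bases before to 50 bases after a start, 42.6% held CACNAG on either strand. The RBPJ core TGGGAA stood in 25.4% of those windows. It was found on neither strand in the windows of the 8 ligand and receptor genes. That says only that these letters are not in these windows. Among the same genes CACNAG also stood in windows of Notch1, Notch2 and Dll1, and in none of Jag1, Jag2 or Notch4. Binding of HES proteins was not tested. The table used has no window for Hes1 and Hey1.

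Dll1, a Delta-like ligand known from marginal zone B cell development, showed a difference of similar size at a lower level. It stood at 2.54, 1.14 and 0.928 CPM in aged 1, 2 and 3 and at 0.0795, 0.149 and 0.438 CPM in young 4, 5 and 6. The groups did not overlap. The young values rest on 1, 3 and 10 counts, and a count of 0 would allow up to 3 counts, or 0.132 to 0.239 CPM in these libraries, for counting error only. The fitted difference was 6.23-fold (2.64 ± 0.68 SE on the log2 scale), and its edgeR adjusted p of 0.0685 missed the threshold. It ranged on the log2 scale from 2.07 without aged 1 to 3.60 without young 6, a move of more than 1.5 times in fold, and Dll1 was called in none of the 6 runs with a library left out. Of the 18 alternatives that tested it, 4 called Dll1 higher. DESeq2 was among these (adjusted p = 0.00666), in a fit that called 16.3% of genes. Dll1 lies on mm10 chromosome 17, 15367354 to 15375823, minus strand, and in GENCODE M21 shares 867 exon bases with the opposite-strand long noncoding RNA gene A930024N18Rik.

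Dll1 and Dll4 reached the test unequally. The filter asked for 0.518 CPM, before TMM scaling, in at least 3 libraries, which Dll1 met only through the aged group, with 0 young libraries above it. Dll4 met it in 3 aged and 2 young libraries.

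The Jagged ligands overlapped between the ages. Jag1, the Notch ligand of stroma and bone-forming cells, stood at 6.42, 12.6 and 16.6 CPM in aged 1, 2 and 3 and at 18.2, 3.24 and 4.69 CPM in young 4, 5 and 6. Young 4 held the highest value of all 6 libraries and young 5 and 6 the lowest. Its log2 fold change was 0.47 ± 0.67 SE with all libraries (adjusted p = 0.674 by edgeR) and 1.56 without young 4 (adjusted p = 0.0812). Jag2, a ligand expressed in thymic epithelium and elsewhere, was at 8.77, 5.47 and 5.76 CPM in aged and 2.23, 4.73 and 6.40 CPM in young libraries. Here young 4 was the lowest library, and young 6 exceeded 2 of the aged ones (0.57 ± 0.41 SE on the log2 scale, edgeR adjusted p = 0.403). Without young 4 the log2 fold change of Jag2 was 0.23 (adjusted p = 0.652).

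**Figure D1:**
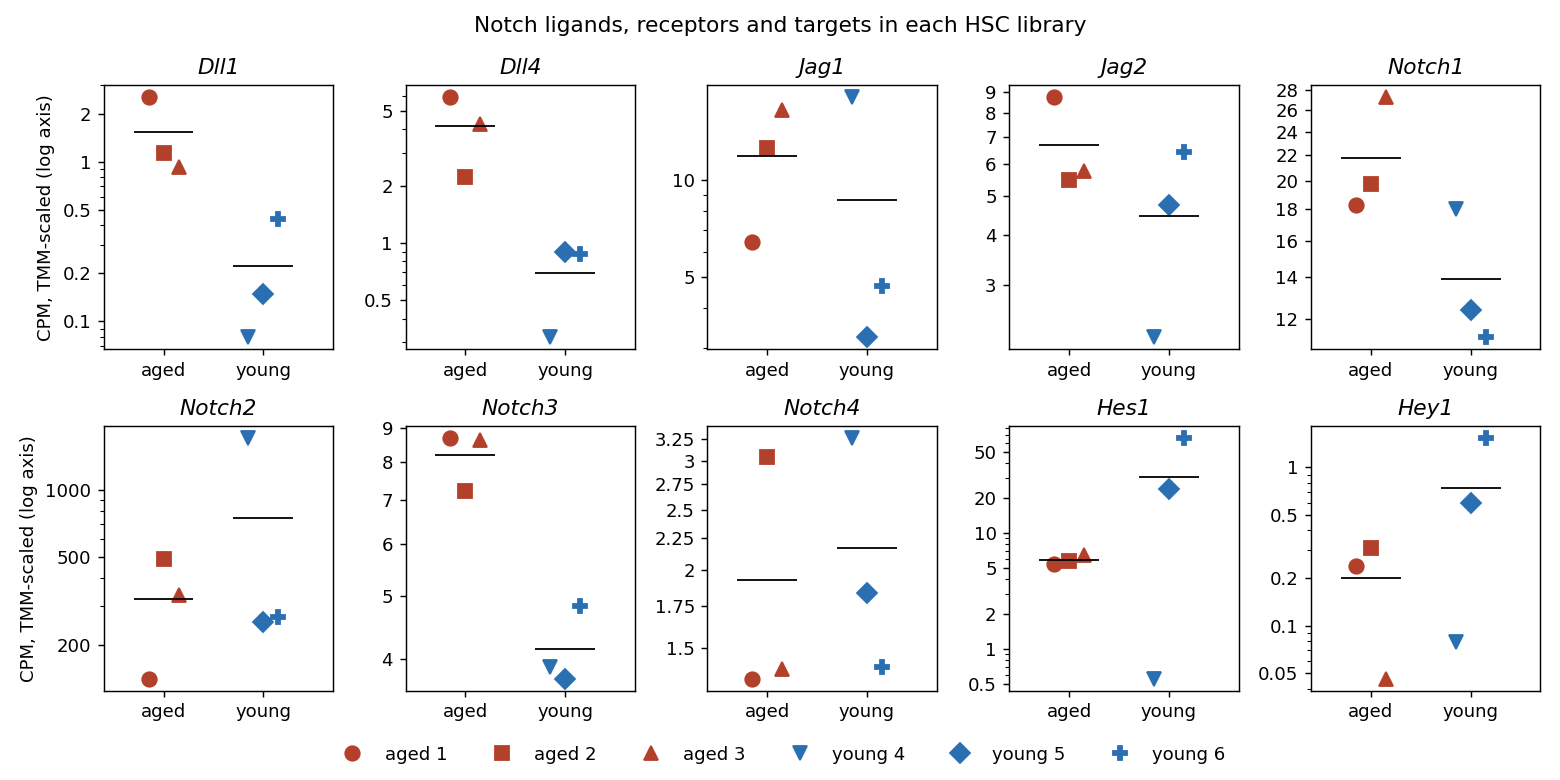
Level of each of the 10 genes in each library, in TMM-scaled CPM on a log axis with its own range per gene; red symbols are aged and blue symbols young libraries, and black bars are group means. Dll1, Dll4, Notch1 and Notch3 show all aged libraries above all young ones, while young 4 lies far from young 5 and 6 for Notch2, Jag1 and Hes1.

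Per kb of gene length, summed RNA of the 4 ligands was 5.81, 4.65 and 5.98 CPM per kb in aged 1, 2 and 3 and 4.00, 2.07 and 2.83 CPM per kb in young 4, 5 and 6. All aged sums lay above all young ones. The make-up of this sum differed from library to library. Dll4 gave 29.5%, 13.9% and 20.8% of it in aged 1, 2 and 3, against 2.31%, 12.6% and 9.01% in young 4, 5 and 6. Jag2 gave 56.7% and 56.1% in young 5 and 6, but Jag1 gave 83.3% in young 4 and 49.8% and 50.8% in aged 2 and 3. By the deposited lengths, aged 1 and aged 2 thus differed in their leading ligand, Jag2 at 37.5% in aged 1 and Jag1 in aged 2. For Jag2 the deposited length is 4.028 kb, against 6.965 kb of exons in GENCODE M21. Its share, and where it leads, therefore depend on the length used.

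Among the receptors, Notch2 RNA prevailed in every library, and 0 of the 4 passed the test for a difference with age. Notch2, which in blood is known for directing B cells to the marginal zone, made up 80.5% to 93.1% of the receptor sum per kb in aged and 92.1% to 98.3% in young libraries. In aged 1 the other receptors were most visible, with Notch1 at 11.6% and Notch3 at 6.74%. In young 4 they nearly vanished beside Notch2, with Notch1 at 1.14% and Notch3 at 0.304%.

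**Figure D2:**
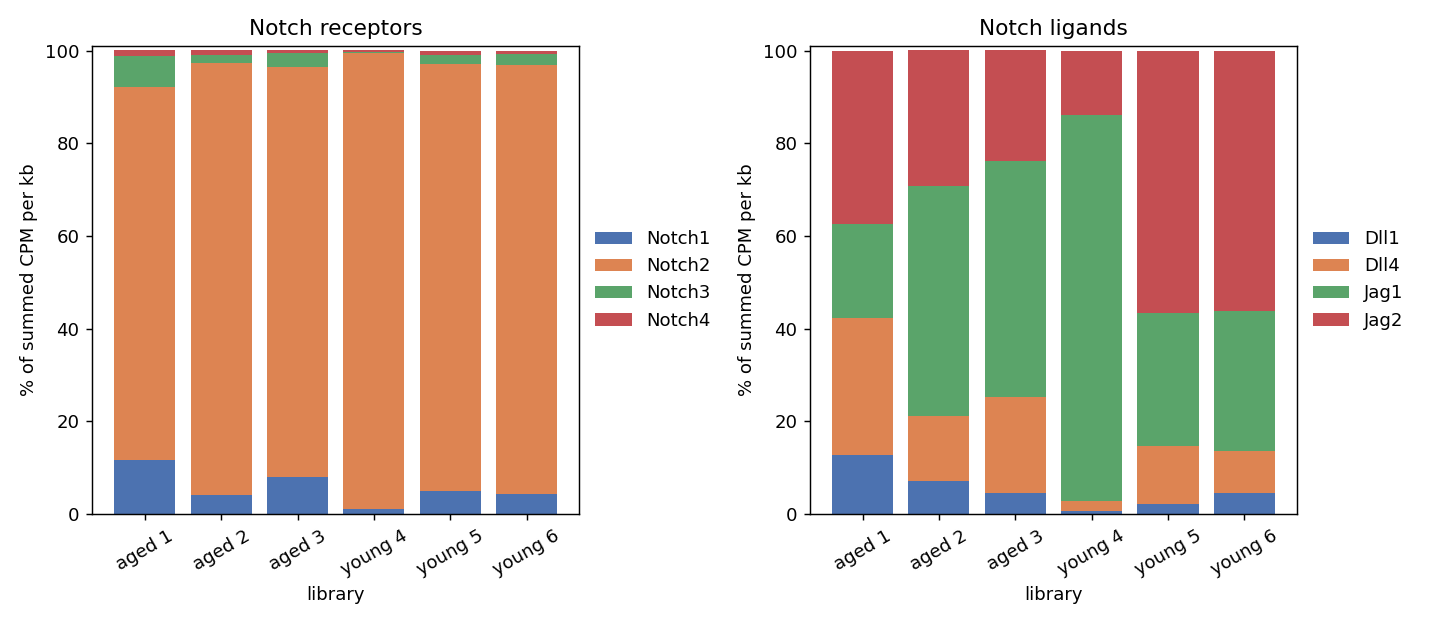
Share of each receptor (left) and each ligand (right) in the sum of its class, in percent of CPM per kb, for each of the 6 libraries. Notch2 takes at least 80.5% of receptor RNA everywhere. By the deposited lengths, the leading ligand is Jag1 in aged 2, aged 3 and young 4 and Jag2 in the other libraries.

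Notch3, a receptor best known from the muscle cells of small arteries, came nearest to a call among the receptors. It was at 8.68, 7.22 and 8.63 CPM in aged 1, 2 and 3 and at 3.90, 3.74 and 4.82 CPM in young 4, 5 and 6. The groups did not overlap and both were tight, young 4 included. The difference was 1.97-fold (0.97 ± 0.23 SE on the log2 scale), and its edgeR adjusted p of 0.0554 missed the threshold. It stayed between 0.90 and 1.10 on the log2 scale with each library left out. DESeq2 gave an adjusted p of 0.00209 for Notch3, in a fit that called 16.3% of genes. With a trend of GC content and gene length taken out, an alternative added after seeing the data, the log2 fold change of Notch3 was 0.41 (adjusted p = 0.345 by edgeR). Notch3 lies on mm10 chromosome 17, 32120893 to 32166852, minus strand, and in GENCODE M21 shares 488 exon bases with the opposite-strand gene Gm17276.

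Notch1, the receptor needed for T cell commitment, was at 18.3, 19.8 and 27.3 CPM in aged 1, 2 and 3. In young 4, 5 and 6 it was at 18, 12.4 and 11.2 CPM. The groups separated only by the small gap between young 4 and aged 1. Its 1.58-fold difference (0.66 ± 0.27 SE on the log2 scale) did not pass the test (edgeR adjusted p = 0.184). Without young 4 the log2 fold change was 0.86 (adjusted p = 0.0717). After removal of the same trend of GC content and length it was 0.09 (adjusted p = 0.901 by edgeR). Notch1 shares exon bases with 2 opposite-strand transcripts in GENCODE M21, so a part of its reads could belong to them.

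Notch2 had the widest range of the receptors. It stood at 141, 488 and 335 CPM in aged 1, 2 and 3 and at 1710, 253 and 267 CPM in young 4, 5 and 6. Young 5 and young 6 lay inside the aged range and young 4 far above it. With all libraries the log2 fold change was -1.21 ± 0.82 SE (adjusted p = 0.377 by edgeR), and without young 4 it was 0.29 (adjusted p = 0.727). The direction of Notch2 thus turned with 1 library. Notch2 lies on mm10 chromosome 3, 98013538 to 98150367, plus strand, and in GENCODE M21 shares 541 exon bases with the same-strand gene Gm42820.

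Notch4, a receptor of vessel cells, was the least abundant receptor. It was at 1.34, 3.04 and 1.39 CPM in aged and at 3.26, 1.84 and 1.40 CPM in young libraries, with overlapping groups (-0.15 ± 0.48 SE on the log2 scale, edgeR adjusted p = 0.856). Its sign turned without young 4 (0.23), without aged 1 (0.05) and without aged 3 (0.04). The deposited interval for Notch4 (mm10 chromosome 17, 34226175 to 34588543) is 362369 bases long and covers 12 other genes of the table, among them H2-Aa, H2-Ab1 and H2-Eb1. GENCODE M21 starts the gene at 34564268, with no exon base shared with another gene. The deposited exon length, 6.977 kb, is shorter than the 8.061 kb of GENCODE, so which exons entered the count is uncertain.

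**Figure D3:**
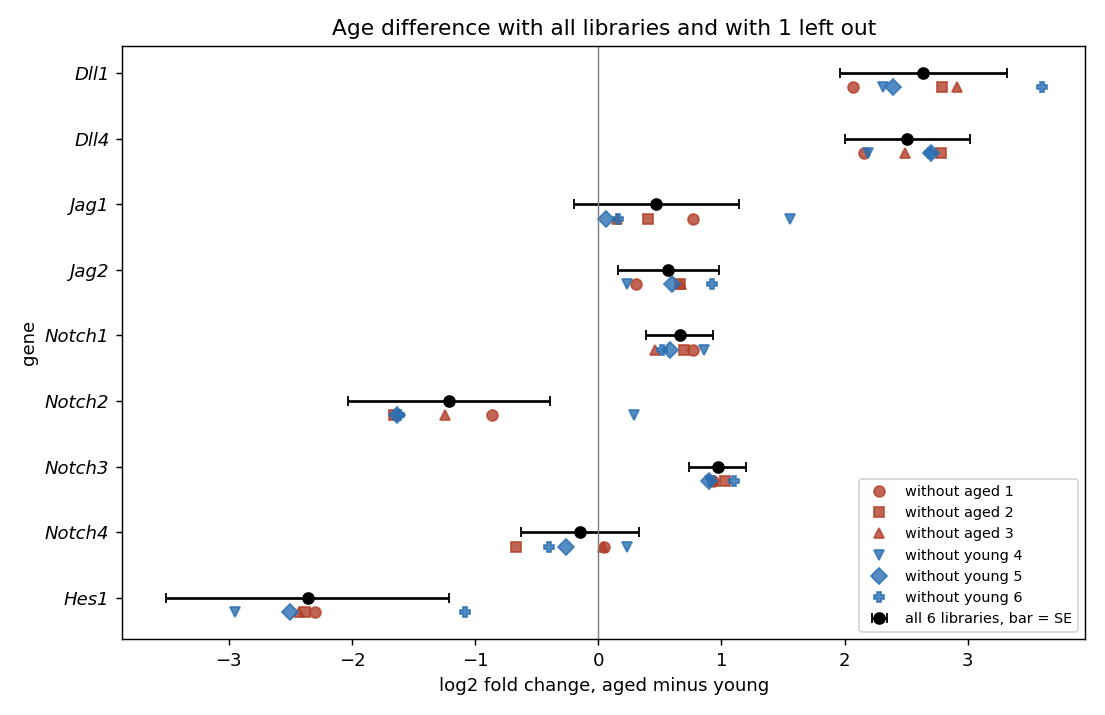
Log2 fold change, aged minus young, of the 9 tested genes with all 6 libraries (black, bars are SE) and with each library left out (coloured symbols). Dll1, Dll4, Jag1, Jag2, Notch1 and Notch3 stay above 0 in every run, Jag1 by as little as 0.06. Notch2 and Notch4 change sign without young 4, and Notch4 also without aged 1 or aged 3. Hes1 moves from -2.36 to -2.95 without young 4 and to -1.08 without young 6.

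The target gene Hes1 split the young libraries rather than the ages. Hes1 encodes a transcriptional repressor of the bHLH class that Notch, among other signals, induces. It was even in aged libraries, at 5.37, 5.78 and 6.50 CPM, and stood at 0.557, 24.1 and 65.5 CPM in young 4, 5 and 6. Young 4 thus lay below every aged library and young 5 and 6 above every one. The young 4 value rests on 7 counts, against 484 and 1495 in young 5 and young 6. With all libraries the log2 fold change was -2.36 ± 1.15 SE (adjusted p = 0.246 by edgeR). Without young 4 it was -2.95, and Hes1 was then called lower in aged cells (adjusted p = 0.0185), in a fit in which 2.54% of genes were called lower. In a fit of the 4 libraries other than young 4 and aged 2, it was -2.95 with an adjusted p of 0.0478 (1.60% called lower). Without young 6 it was -1.08 (adjusted p = 0.538 by edgeR). Hes1 lies on mm10 chromosome 16, 30065357 to 30067796, plus strand.

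Hey1, a related repressor gene that acts in vessel and heart development, was near the detection limit. It was at 0.240, 0.310 and 0.0464 CPM in aged 1, 2 and 3 and at 0.0795, 0.598 and 1.53 CPM in young 4, 5 and 6. These values rest on 12 counts in the aged and 48 in the young group, with 35 of the latter in young 6. Like Hes1, it was highest in young 6 and next in young 5, and young 4 was as low as the aged libraries. With the filter on low counts removed, its log2 fold change was -1.93 ± 0.96 SE (adjusted p = 0.321 by edgeR). Without young 4 Hey1 passed the filter, and its log2 fold change was -2.44 (adjusted p = 0.0963).

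The sum of the stroma and bone markers, though not each marker, was highest in young 6, the library with the highest target values. The summed level of 10 stroma and bone markers was 121 CPM in young 6 and 44.3 to 57.5 CPM in the other libraries. Col1a1, the collagen gene of bone-forming cells, was at 43.1 CPM in young 6 and between 0.232 and 2.53 CPM elsewhere. Col1a2, Cxcl12, Bglap, Runx2 and Adipoq were also highest in young 6. Lepr, Pdgfra, Pdgfrb and Col3a1 went the other way and were highest in an aged library. Runx2 alone gave 27.5 to 38.9 CPM across the libraries. Young 5, which had the second highest Hes1 and Hey1, had Col1a1 at 0.299 CPM. Endothelial markers were mixed. Cdh5, the defining cadherin of vessel cells, was at 1.27 CPM in young 6, 0.498 CPM in young 5 and 0.0464 to 0.258 CPM in the other libraries. The sum of the 12 endothelial markers was 30.2 CPM in young 6, below each aged library. The part of these cells in the Hes1 and Hey1 values was not tested.

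The 12 endothelial markers together were higher in the aged group, where Dll4 was higher, at 47.8 to 86.2 CPM against 14.5 to 30.2 CPM in young libraries. In aged libraries that sum came mostly from Kdr and Cldn5. In aged libraries Cldn5, a tight junction gene and the only 1 of the 12 called higher, was at 18.7 to 55 CPM. Of all tested genes, 4.26% were called higher. Cdh5 was at most 0.258 CPM in aged libraries, below its level in young 5 and 6, and 4 of the 12 markers were under 1 CPM in every library. The 8 division markers summed to 1910 to 2820 CPM in young and 431 to 1030 CPM in aged libraries. Of these, 3 were called lower in aged cells, where 1.50% of all tested genes were. All but Mcm2 had every aged library below every young one, as had 17.6% of all tested genes. Young 4 had the highest sum. Their part in the Notch values was not tested.

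The order of levels per kb of deposited length was clearest at its top. In aged HSCs the medians ran from Notch2 (31.2 CPM per kb) over Hes1 (3.99), Jag1 (2.31), Notch1 (2.03), Jag2 (1.43), Dll4 (1.24), Notch3 (1.09), Dll1 (0.332) and Notch4 (0.200) to Hey1 (0.109). Notch2 and Hes1 each exceeded the next gene with ranges that did not overlap, as did Notch3 over Dll1 and Notch4 over Hey1. The neighbours from Jag1 to Notch3 overlapped in their ranges. In young HSCs the medians ran from Notch2 (24.9 CPM per kb) and Hes1 (16.7) over Notch1 (1.28), Jag2 (1.18), Jag1 (0.858), Notch3 (0.492), Hey1 (0.272), Notch4 (0.264) and Dll4 (0.255) to Dll1 (0.0437). Each neighbouring pair in the young order overlapped in range.

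The young libraries differed widely among themselves for some of these genes. On the log2 scale, young 4 exceeded the mean of young 5 and 6 by 2.72 for Notch2, which ranked 5 from the top of the 13413 tested genes, and by 2.19 for Jag1, which ranked 54. Hes1 was at -5.92 by the same measure and ranked 2 from the bottom. Dll1 was at -1.02, Dll4 at -1.23, Jag2 at -1.27 and Notch3 at -0.12. For comparison, 9.51% of all tested genes lay at least 2-fold above and 13.1% at least 2-fold below in young 4. Young 6 exceeded young 5 by 1.44 for Hes1 and by 0.08 for Notch2.

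**Figure D4:**
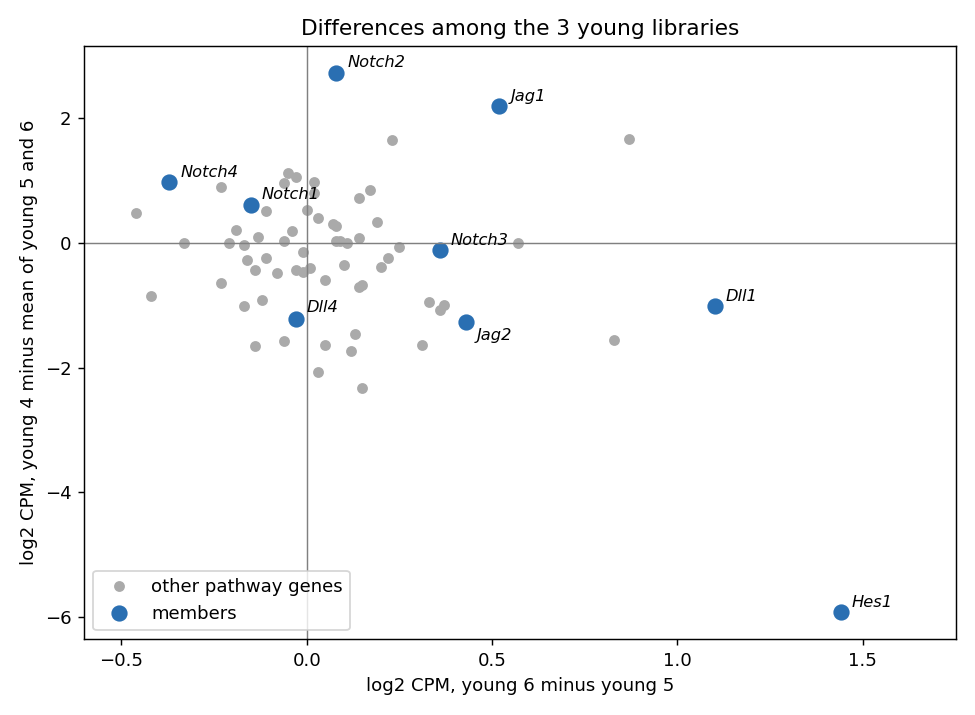
Difference of young 4 from the mean of young 5 and 6 (vertical) against the difference of young 6 from young 5 (horizontal), both in log2 CPM, for the 9 tested members (blue) and 60 other pathway genes (grey). Notch2 (2.72) and Jag1 (2.19) lie highest and Hes1 (-5.92) lowest.

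Read together, 1 of the 9 tested members was called higher and 0 lower in aged HSCs, where 4.26% and 1.50% of all tested genes were. By unadjusted p (under 0.05), 4 stood higher and none lower, against 13.9% and 11.1% of all genes. Aged libraries lay above all young ones for 4 of the 9 (Dll1, Dll4, Notch1 and Notch3) and below for 0, where 19.0% and 17.6% of all tested genes were so separated. The median log2 fold change of the 9 was 0.57, against 0.04 over all tested genes. Dll1 passed the filter only through the group in which it is high, so these counts and this median describe the tested members and carry no test.

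Of the 73 other pathway genes examined, 60 were tested; 4 were called higher in aged HSCs and 0 lower, against 4.26% and 1.50% of all genes. Of these 60, aged libraries lay above all young ones for 12 and below for 3, where 19.0% and 17.6% of all tested genes were so separated. The 4 calls were Aph1b and Aph1c, both subunits of gamma-secretase, Dtx4, a Deltex ubiquitin ligase, and Gata3, a transcription factor gene of T cells and stem cells. The median log2 fold change of the 60 was 0.18. Leaving out aged 2, aged 3, young 5 or young 6 ended all 4 calls, and leaving out aged 1 ended that of Dtx4.

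The protease step gave 2 of these calls, among 9 genes tested. Aph1c was at 29.9, 32.6 and 36.7 CPM in aged 1, 2 and 3 and at 14.5, 14.5 and 14.0 CPM in young 4, 5 and 6. The libraries of each age were close together and far from the other age, a 2.30-fold rise (adjusted p = 0.0167 by edgeR). Aph1b rose 2.43-fold, from 7.47, 7.17 and 8.55 CPM in young to 15.8, 20.7 and 19.8 CPM in aged libraries (adjusted p = 0.0235). The pair lie next to each other on mm10 chromosome 9 (66775487 to 66795423 and 66814994 to 66834706) and are close copies, so their reads may be split or lost. With each library left out, the log2 fold change stayed between 1.12 and 1.27 for Aph1c and between 1.18 and 1.38 for Aph1b. Aph1a, the third APH1 gene, was at 9.69, 3.10 and 4.92 CPM in aged and 1.43, 4.98 and 4.52 CPM in young libraries. The genes for the sheddases Adam10 and Adam17 and for the gamma-secretase subunits Ncstn and Psenen did not pass the test.

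No gene of the nuclear complex passed. Rbpj, the DNA-binding core, was at 57.5, 52.3 and 53.1 CPM in aged and 55.4, 61.8 and 61.2 CPM in young libraries. The 2 of the 9 with the smallest p were Maml3 (1.25-fold higher in the aged mean, adjusted p = 0.415) and the acetyltransferase gene Crebbp (1.14-fold, adjusted p = 0.472). Of 10 corepressor genes tested, 0 were called. Tle3, a Groucho-type corepressor gene, was at 22.2, 16.6 and 19.8 CPM in aged and 9.78, 13 and 13 CPM in young libraries, without overlap (adjusted p = 0.103 by edgeR). Tle2 had an adjusted p of 0.163.

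Among 11 inhibitors and turnover genes, Dtx4 rose 3.74-fold, from 1.35, 0.747 and 0.833 CPM in young 4, 5 and 6 to 3.45, 4.64 and 2.69 CPM in aged 1, 2 and 3 (adjusted p = 0.0371 by edgeR). All aged values exceeded all young ones, at low levels. Nrarp, a feedback inhibitor that Notch itself induces, pointed the other way. It was at 3.40, 2.27 and 1.58 CPM in aged and 4.77, 3.94 and 5.87 CPM in young libraries, without overlap (log2 fold change -1.01, adjusted p = 0.14 by edgeR), and is named here after its values were seen. In young 4 Nrarp was as high as in the other young libraries, unlike Hes1.

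Of the Hes and Hey relatives, 4 of 9 were tested and 0 called. Bhlhe40, which encodes a bHLH repressor, was at 36.8, 25.5 and 33.6 CPM in aged and 7.55, 13.1 and 16.5 CPM in young libraries (adjusted p = 0.0517 by edgeR, and 0.0383 without young 4). Hes5, a Notch target of the nervous system, was at 2.78, 2.79 and 3.67 CPM in aged and 1.51, 2.64 and 2.24 CPM in young libraries (adjusted p = 0.329). Of 10 other genes reported as targets in blood cells, Gata3 rose 2.27-fold, from 82.6, 90.9 and 106 CPM in young to 151, 231 and 253 CPM in aged libraries (adjusted p = 0.0371). The call of Gata3 was lost with a trend of gene length taken out, and with that of GC content and length. In GENCODE M21 Gata3 shares exon bases with 9230102O04Rik and the antisense gene Gm13256. The T lineage targets Ptcra, Il2ra, Bcl11b and Tcf7 had too few counts to be tested.

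Ligand handling and receptor maturation gave 0 calls among 4 and 6 tested genes. Mib2, a ubiquitin ligase gene for ligand uptake, was at 45.9, 19.0 and 21.4 CPM in aged and 6.52, 17.4 and 19.1 CPM in young libraries (adjusted p = 0.249), with a 1.99-fold difference, and its log2 fold change without young 4 was 0.63. Mib1, its relative, had an adjusted p of 0.524. Mfng, a Fringe glycosyltransferase gene that tunes which ligand a receptor answers, was at 194, 112 and 156 CPM in aged and 36.3, 111 and 106 CPM in young libraries (adjusted p = 0.247), and its log2 fold change of 0.87 was 0.49 without young 4. Poglut1, which adds O-glucose to Notch, was at 91.9, 89.2 and 90.9 CPM in aged and 75.1, 72.2 and 78.2 CPM in young libraries (adjusted p = 0.257). Dlk1, a Delta-like protein gene of the non-canonical kind, had an adjusted p of 0.247.

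**Figure D5:**
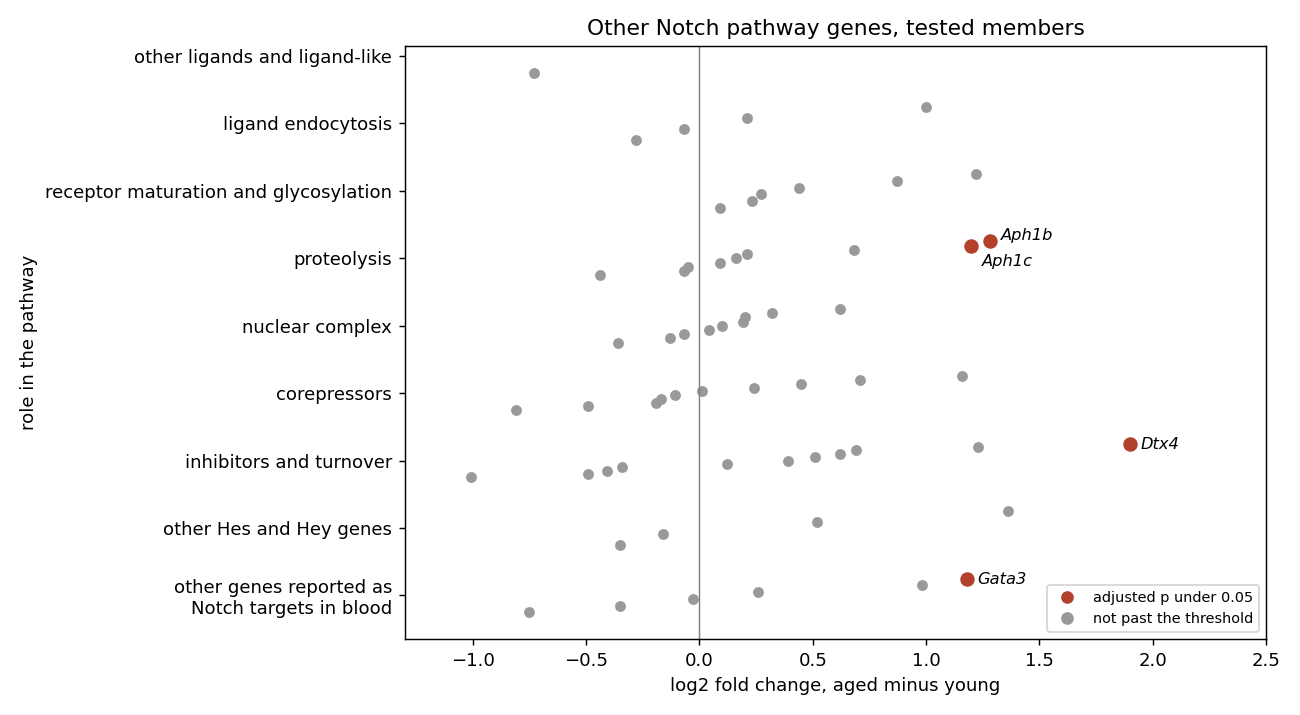
Log2 fold change, aged minus young, of the 60 tested pathway genes by role, 1 point per gene; red points passed an adjusted p of 0.05. The 4 red points, Aph1b, Aph1c, Dtx4 and Gata3, lie above 1 on the log2 scale.

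The genes most like Dll4 over the 6 libraries, by Pearson's r of log2 CPM among 10161 genes with a mean of at least 5 CPM, were Gpr4 (0.9993), Tle3 (0.9992) and Amotl2 (0.9982). These points share 2 ages and 6 libraries, and such values are a description. Gpr4, a proton-sensing receptor gene, was at 17.4, 6.55 and 13 CPM in aged and 0.795, 2.24 and 2.37 CPM in young libraries, the same order of libraries within the aged group as Dll4. Amotl2, which encodes an angiomotin-like scaffold protein, was at 27.9, 13.7 and 20.8 CPM in aged and 4.13, 7.17 and 7.93 CPM in young libraries.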

How the data were processed

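RNA of 6 HSC libraries was measured with SMART-Seq v4, which amplifies full-length cDNA without marking strand, and read for 51 cycles, per the labels' protocols. The authors deposited whole-number counts per gene, unscaled, with coordinates and a gene length in kb. Tools named, without roles, per the submitters' processing notes, are edgeR, HTSeq 0.11.1, STAR 2.6.0 and Trimmomatic, with build mm10; which annotation and which counting mode were used is not stated there.

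Here 1 edgeR 4.0.16 fit (R 4.3.3) covered the whole table: filterByExpr, TMM, quasi-likelihood test, age as the only term, and adjustment over 13413 genes. CPM values are TMM-scaled; CPM per kb divides them by the deposited length. Alternatives used limma 3.58.1 and DESeq2 1.42.0, other scalings and filters, trends of length or of GC content and length (GENCODE M21; splines with 4 degrees of freedom), and left-out libraries.

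Members and gene lists were chosen with earlier results of these data known. The text names all 10 members; per pathway group, called genes (up to 4 by p) or otherwise the 2 with the smallest p; and the 3 genes most like Dll4. Other genes were named after their values were seen. Replicate numbers came from the sample titles.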

Additional observations from a re-analysis of the deposited data

How the results depend on the processing

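The number of genes called of all tested, 772, became 443 with at least 5 CPM asked for in 3 libraries, 2181 with DESeq2, 4094 with limma-voom and quality weights, 1910 with the likelihood ratio test, 1381 after removal of a trend of GC content and length, and 74 (without young 5) to 1029 (without young 4) with a library left out. Without aged 1, aged 2, aged 3 and young 6 it was 282, 129, 85 and 88. Of the 10 Notch genes, 1 was called; this became 0 with library totals, the 5 CPM minimum (which removed Dll4 from the test) and limma-voom, 2 with upper-quartile scaling, removal of the GC and length trend, or young 4 and aged 2 left out, 3 with DESeq2 and the likelihood ratio test, 5 with quality weights, and 0 to 2 with a library left out. The 4 calls among the other pathway genes, all higher in aged cells, became 7 with DESeq2 (1 lower) and 13 with quality weights (3 lower). They became 2 without young 4 and aged 2, and 0 to 5 with a library left out. Nrarp was called lower with DESeq2, with quality weights and after removal of the GC and length trend. The log2 fold change of Notch2 turned to 0.35 with quality weights and ranged from -1.66 to 0.29 with a library left out; that of Notch4 turned to 0.061 with library totals and 0.11 with quality weights, and ranged from -0.67 to 0.23. Dll1, Dll4, Jag1, Jag2, Notch1 and Notch3 stayed above 0 and Hes1 below 0 under all alternatives that tested them. The cause of these shifts was not tested. The share of calls that were higher in aged cells was 74.0%, and 80.2% with library totals, 64.7% with no filter, 81.9% with the 5 CPM minimum, 57.5% with DESeq2, 56.8% with quality weights, 63.4% with the likelihood ratio test, 57.9% after removal of the length trend and 52.1% after removal of that of GC and length; with a library left out it was 66.0% to 96.5%. The median log2 fold change of all genes moved from 0.04 to 0.20 with library totals, 0.27 with no filter, -0.09 and -0.07 after those 2 removals. At 1 to 35 counts per library, depth limits what can be said of Hey1, and at 1 to 10 of Dll1 in young cells. No paired analysis was possible because the replicate numbers of the aged (1 to 3) and young (4 to 6) libraries share none.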
